A study of Mus musculus with 6 samples.

Results

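The data on 4 genes that are, overlap or are annotated as RNAs of non-polyadenylated classes were examined: the small nucleolar RNA Snord89, the small nuclear RNA model Gm22710, the antisense transcript 2900060B14Rik that contains it, and the ribosomal RNA gene CT010467.1. These 4 genes were picked by symbol, out of 52249 genes in the deposited table, because they were lower in one group of these same libraries. Their difference between the groups is therefore a description, and no test of it is given. The 4 genes lie at 3 loci, and all 4 passed the filter on low counts. The data are 3′ mRNA counts from 6 libraries of organoids of the mouse intestine, epithelial cultures that grow as small hollow bodies. All 6 libraries carried the genotype Apc-knockout, and 3 of them, called control here, have no further change in their labels. The other 3 were labelled as IGF2BP3 overexpressing and are called OE here, by that label. The labels give no strain, age or sex, do not say how the gene was overexpressed, and do not say whether libraries of a group came from separate cultures. Any p-value below then measures only the spread between these libraries.

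Igf2bp3 was counted 1, 0 and 0 times in control and just as often in OE replicates 1 to 3, so this gave no check of the label. Library totals ran from 2180116 to 2519917 counts. The library names put each group in a naming series of its own, so series and group cannot be told apart in any value below. Of 10 epithelial markers, 8 had at least 3 counts in every library. Krt20 and Cdx1 had 0 counts throughout. The summed epithelial level was 3950 to 4180 CPM, counts scaled to library size, in control and 5340 to 6030 CPM in OE libraries. The largest part of that gap lay in the keratin Krt18 (1179 ± 20.9 against 2229 ± 188 CPM). Krt8 (497.7 ± 35.3 against 829.2 ± 44.8 CPM), Krt19 (489.3 ± 20.4 against 772.1 ± 48.2 CPM) and Vil1 (68.6 ± 0.545 against 108 ± 11.5 CPM) were also higher in OE. Epcam (432 ± 1.36 against 455 ± 25 CPM) and Cdh1 (1398 ± 85.5 against 1282 ± 275 CPM) were nearly level or lower (SD, n = 3). For Lgr5 and Cdx2 the groups overlapped. The part of these markers in the results was not tested. Of 13 markers of mesenchyme, endothelium, blood and enteric neurons, 0 reached 3 counts in every library and 7 had 0 counts throughout, with a summed level of at most 3.69 CPM.

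Small nucleolar RNAs are usually cut out of introns of a host transcript and guide chemical modification of ribosomal and other RNAs. Small nuclear RNAs are the RNA parts of the spliceosome, which removes introns. Both kinds, like mature cytosolic ribosomal RNA, end without a poly(A) tail, while a 3′ mRNA library is primed with oligo(dT), which binds runs of A. A count of such a gene can come from a molecule with a tail, from an A-rich stretch or from a longer overlapping transcript, among others, and the counts alone do not say which.

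The sequences of the annotated transcripts are shown because they set out how the genes nest and where runs of A lie. They were taken from the GENCODE M21 transcript set of GRCm38 and are printed 5′ to 3′ along each named strand. A C box and a D box together mark a C/D box small nucleolar RNA. In Snord89 (ENSMUSG00000077704, minus strand, chr1:39548745-39548854) the capitals mark every match to TGATGA, the core of the C box, and to CTGA, the letters of the D box. In Gm22710 (ENSMUSG00000080542, minus strand, chr1:118459141-118459265) they mark ATTTTTGG, the kind of stretch bound by Sm proteins, and the run of A at the end. In the stretch of 2900060B14Rik (ENSMUSG00000107722, minus strand, chr1:118458652-118459267) around the end of Gm22710 (chr1:118459116-118459167) they mark the bases that belong to Gm22710, and in its last stretch (chr1:118458652-118458711) the final run of A.
Snord89: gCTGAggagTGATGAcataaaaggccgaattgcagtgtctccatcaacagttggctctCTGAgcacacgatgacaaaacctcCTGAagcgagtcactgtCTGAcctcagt
Gm22710: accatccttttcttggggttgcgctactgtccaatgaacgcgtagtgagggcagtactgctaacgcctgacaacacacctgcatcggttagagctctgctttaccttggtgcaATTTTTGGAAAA
2900060B14Rik around the end of Gm22710: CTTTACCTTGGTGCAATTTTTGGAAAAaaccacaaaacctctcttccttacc
2900060B14Rik, last stretch: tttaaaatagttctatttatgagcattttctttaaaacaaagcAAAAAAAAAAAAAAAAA

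The 110 bases of Snord89 held TGATGA once, at bases 10 to 15, and CTGA at 4 places, the last at bases 100 to 103. The first CTGA, at bases 2 to 5, lies before TGATGA, and which match is the D box was not tested. Of 1507 annotated mouse snoRNA genes, 24% held TGATGA with a CTGA after it, as did 10 of the 15 with at least 20 counts in these libraries. Snord89 is itself among the 10. The longest run of A in Snord89 was 4 bases and lay inside the molecule, at bases 19 to 22. The annotation gives Gm22710 no name beyond a model number. From general knowledge, its sequence resembles U4atac, the small nuclear RNA that pairs with its partner in the minor spliceosome. Of 1383 annotated snRNA genes, 1.81% held ATTTTTGG and 2.24% ended in AAAA, as Gm22710 does. Among the 9 snRNA genes with at least 20 counts, Gm22710 included, these were 1 and 2 genes. The 1 gene with ATTTTTGG is Gm22710 itself, and it is also among the 2. In the longer transcript this run of A goes on past the end of Gm22710 to 6 bases (124 to 129). The 616 bases of 2900060B14Rik end in 17 encoded A. These matches describe the letters and show no priming site. For Snord89, Gm22710 and 2900060B14Rik, searches were made on the annotated strand only.

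CT010467.1 (ENSMUSG00000106106, chr17:39846353-39848827) is annotated as rRNA on the minus strand, and the sequence shows that this strand runs opposite to ribosomal RNA. The first stretch of its 1849-base transcript (chr17:39848142-39848201) is shown on both strands. Capitals mark 13 bases which, read along the opposite strand, are the known 3′ end of 18S, the RNA of the small ribosomal subunit.
CT010467.1 as annotated: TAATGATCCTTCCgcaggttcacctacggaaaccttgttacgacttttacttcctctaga
CT010467.1, opposite strand: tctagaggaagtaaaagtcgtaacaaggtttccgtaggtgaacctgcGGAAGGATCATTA
The opposite strand of this 1849-base transcript shared a block of 1244 identical bases with Gm42418, a transcript annotated on the plus strand of the same locus. As annotated, its longest shared block was 10 bases. The longest run of A in CT010467.1 was 4 bases as annotated and 6 bases on the opposite strand. Gm42418 and AY036118, which overlap CT010467.1, were not analysed here. The annotation release behind the deposited counts is not given in the sources used here, so the strand these reads came from was not tested. Ribosomal RNA genes are also present in many near-identical copies, which makes the count uncertain.

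Snord89 was counted 157, 138 and 158 times in the control libraries and 28, 16 and 18 times in the OE libraries, in replicate order. Scaled to library size, these were 72.4, 64.7 and 72.8 CPM against 11.3, 6.29 and 7.61 CPM. All 3 OE libraries lay below all 3 control libraries, as they did for 20.5% of the 10687 tested genes, and the lowest control value was 5.71 times the highest OE value. The means were 69.96 ± 4.53 CPM and 8.415 ± 2.62 CPM (SD, n = 3), which is 8.28-fold lower (fitted log2 fold change -3.05, SE 0.2). Against counting noise, the variance of Snord89 was 0.614 times among control and 1.91 times among OE libraries. The medians over all tested genes were 0.813 and 1.92.

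**Figure D1:**
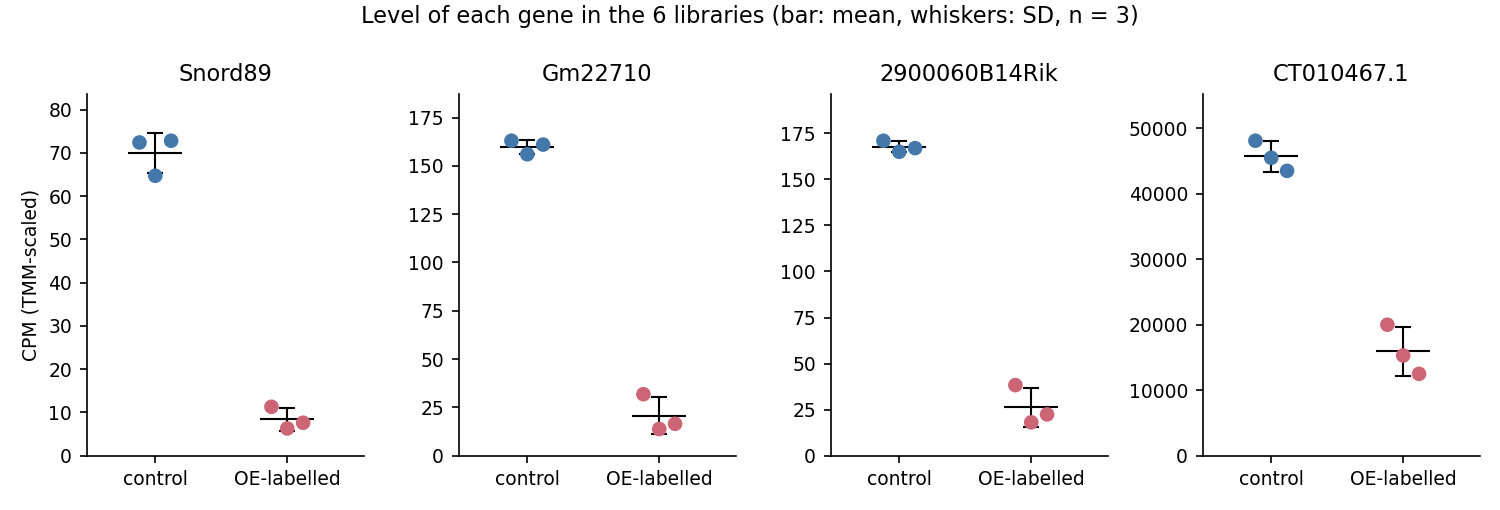
Level of each gene (TMM-scaled CPM, linear axes starting at 0) in the 3 control (blue) and 3 OE (red) libraries, with the mean as a bar and the SD as whiskers. All 3 OE points lie below all 3 control points for each of the 4 genes, and the first OE library is the highest of its group for each of them.

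The transcript that holds Snord89 moved the other way. Snord89 lies inside the span of Gm15832, a non-coding transcript on the same strand, in an intron 72 bases from the nearest exon. Gm15832 had control counts of 74.5, 70.5 and 74 and OE counts of 149.5, 144.5 and 119.5. It rose from 33.83 ± 0.669 CPM to 55.97 ± 5.08 CPM (mean ± SD, n = 3; log2 fold change 0.73, SE 0.14; adjusted p = 0.00239 in edgeR). In 17 processing alternatives the adjusted p of Gm15832 ran from 0.000112 to 0.0188. Gm15832 overlaps the end of Rnf149, a ubiquitin ligase gene, and both have fractional counts, so how reads in the overlap were assigned is uncertain. Rnf149 went from 78.97 ± 1.97 CPM to 99.08 ± 9.42 CPM (mean ± SD, n = 3; log2 fold change 0.33, SE 0.12), which did not pass (adjusted p = 0.0545 in edgeR).

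Gm22710 had deposited counts of 353, 332 and 350 in control and of 78.5, 35 and 39 in OE libraries. These were 163, 156 and 161 CPM against 31.8, 13.8 and 16.5 CPM. The groups did not overlap, and the first OE library held 2.31 times the level of the lowest. The mean was 159.9 ± 3.66 CPM in control and 20.68 ± 9.72 CPM in OE (SD, n = 3), which is 7.74-fold lower (log2 fold change -2.95, SE 0.22). 2900060B14Rik had control counts of 371, 352 and 363 and OE counts of 94.5, 46 and 53. Its CPM values were 171, 165 and 167 against 38.3, 18.1 and 22.4, so these groups did not overlap either. Its mean was 167.8 ± 2.96 CPM in control and 26.26 ± 10.6 CPM in OE (SD, n = 3), or 6.4-fold lower (log2 fold change -2.68, SE 0.2).

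Gm22710 and 2900060B14Rik were not separate measurements. Bases 3 to 127 of the 2900060B14Rik transcript are the whole of Gm22710, on the same strand. In the table, 31.2% of the values above 0 were fractional among genes that share exon sequence with a gene on the same strand. The share was 0.0297% among genes that overlap exons only on the opposite strand and 0.0304% among those with no exon overlap. The 2 Rnu3a entries at 1 locus had 5.5, 13.5 and 6.5 counts and 5.5, 12.5 and 6.5 counts in the control libraries. Fractions of this kind are what an equal split of reads between overlapping genes of the same strand would give, although the counting mode is not stated. Split in that way, Gm22710 would rest on 706, 664 and 700 reads in control and 157, 70 and 78 reads in OE libraries. The variance of these reads was 0.321 times counting noise among control and 21.6 times among OE libraries, where replicate 1 stood above the other 2.

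The counts of 2900060B14Rik beyond those of Gm22710 showed no such gap. They were 18, 20 and 13 in the control libraries and 16, 11 and 14 in the OE libraries, so the groups overlapped. As CPM without TMM scaling, the remainder was 7.704 ± 1.688 in control and 5.631 ± 1.115 in OE (SD, n = 3), a ratio of 0.731. Gm22710 made up 94.3% to 96.4% of the value of 2900060B14Rik in control and 73.6% to 83.1% in OE libraries. The low level of 2900060B14Rik in the OE libraries thus lay in the stretch it shares with Gm22710. With remainders of 11 to 20 counts, a smaller change elsewhere in the transcript was not detectable at this depth.

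**Figure D2:**
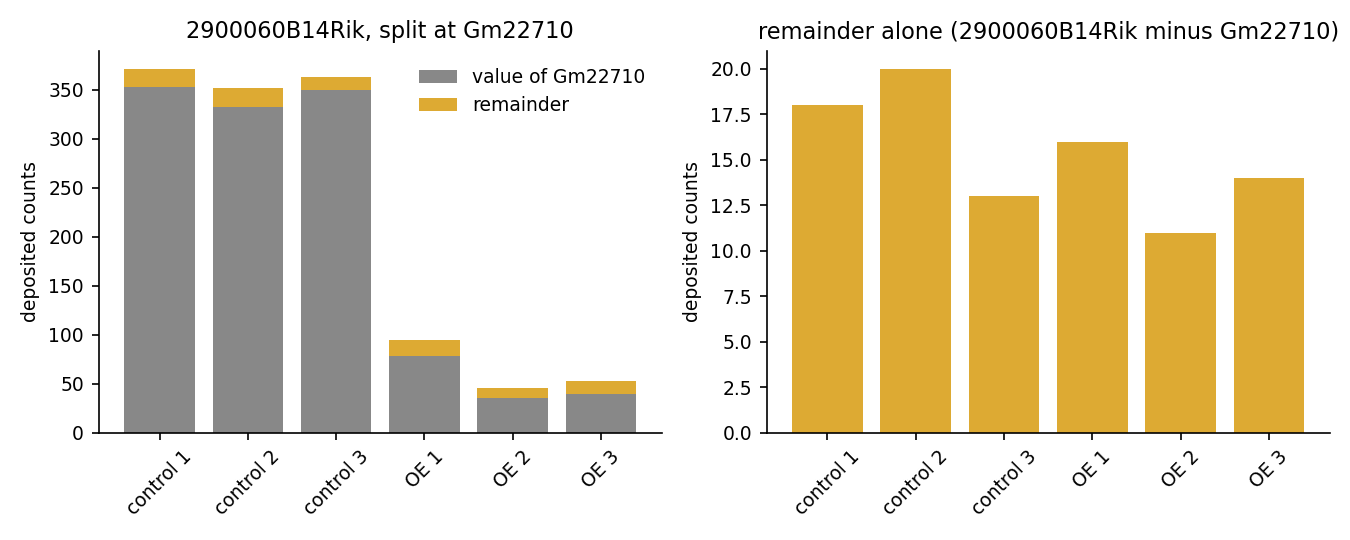
Deposited counts of 2900060B14Rik in each library, split into the value of Gm22710 (grey) and the remainder (yellow), on axes starting at 0; the right panel shows the remainder alone. The grey part is 332 to 353 in control and 35 to 78.5 in OE libraries, while the remainder is 13 to 20 and 11 to 16.

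Both genes lie inside Clasp1, a microtubule plus-end protein gene on the opposite strand, in an intron 323 bases from the nearest Clasp1 exon for Gm22710. Clasp1 fell from 48.97 ± 1.66 CPM to 29.41 ± 5.35 CPM (mean ± SD, n = 3; log2 fold change -0.74, SE 0.16; adjusted p = 0.00501 in edgeR). The adjusted p of Clasp1 ran from 0.000337 to 0.0292 in 17 alternatives.

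CT010467.1 took 4.69%, 4.45% and 4.25% of all counts in the control libraries and 1.99%, 1.55% and 1.27% in the OE libraries. Its deposited counts were 104387, 97053 and 94320 against 49320, 39005 and 29451. The groups did not overlap, the lowest control level being 2.17 times the highest OE level in CPM. The mean level was 45700 ± 2330 CPM in control and 15920 ± 3800 CPM in OE (SD, n = 3), or 2.87-fold lower (log2 fold change -1.52, SE 0.14). The OE libraries spread more, at 0.34 on the log2 scale against 0.07 in control (SD, n = 3). CPM is a share of the library, so the shares of different RNAs move together, and protein-coding genes made up 81.2% ± 0.129 of control counts and 90.1% ± 0.715 of OE counts (SD, n = 3). In bulk samples, fewer cells that make an RNA and less of it per cell cannot be told apart.

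Against the whole transcriptome, 29.2% of 10687 tested genes differed at an edgeR adjusted p below 0.05, 12.7% being lower and 16.5% higher in OE libraries. CPM ranges that did not overlap, with OE libraries lower, were found for 20.5% of genes, and such ranges in either direction for 45.7%. By fitted fold change Snord89, Gm22710, 2900060B14Rik and CT010467.1 stood at places 4, 5, 9 and 66 from the lowest. They were selected for this, so nothing is read from their places, nor from the 2.98% and 0.243% of genes called lower by at least 2-fold and 4-fold. Leaving out the first OE library gave log2 fold changes of -3.38 for Snord89, -3.46 for Gm22710, -3.11 for 2900060B14Rik and -1.77 for CT010467.1.

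Other short and structured RNAs were then counted, by lists built from gene symbols and annotated type without the 4 genes. Of 1558 small nucleolar and Cajal body RNA genes, 177 had any count and only 5 passed the count filter. Of these 5, Snord87 and Snord49b fell, Snord13 rose, and Snord104 and Snord118 did not pass (median log2 fold change -0.02, against 0.041 for all tested genes). The share called was 60%, against 29.2% of all tested genes. Snord87 had control counts of 21, 21 and 16 and OE counts of 4, 0 and 2, a log2 fold change of -3.38 (SE 0.53; adjusted p = 0.000722 in edgeR; 1.35e-09 to 0.00821 over the alternatives). Snord49b had 12, 14 and 12 counts against 2, 0 and 4, a log2 fold change of -2.77 (SE 0.57; adjusted p = 0.00364 in edgeR; 2.19e-05 to 0.0235). Both passed the count filter only through the control libraries. A filter met in this way favours genes that are lower in OE, so the 2 are no independent sign of a trend.

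Snord13, which helps mature 18S ribosomal RNA and is made from its own promoter, had control counts of 695, 705 and 738 and OE counts of 1359, 901 and 1015. It rose by a log2 fold change of 0.43 (SE 0.14; adjusted p = 0.036 in edgeR). That call was lost in 9 of 17 alternatives (adjusted p 0.0118 to 0.142), and without OE replicate 1 the change was 0.19. Copies of Snord13 elsewhere in the genome could share its reads. Snord104 was at 30.77 ± 3.31 CPM and 30.41 ± 2.5 CPM (SD, n = 3; log2 fold change -0.02, SE 0.16, edgeR adjusted p = 0.948). Snord118, the U8 RNA of large-subunit rRNA processing, had 10, 13 and 19 counts against 24, 17 and 34, with a log2 fold change of 0.65 (SE 0.35) that did not pass (edgeR adjusted p = 0.178).

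The host genes of both small nucleolar RNAs that fell did not pass the test. Snord49b lies in 2410006H16Rik, whose log2 fold change was 0.01 (SE 0.12; adjusted p = 0.961 in edgeR). Snord87 lies in Snhg6, with control counts of 59, 78 and 89 and OE counts of 7, 30 and 74, a log2 fold change of -1.2 (SE 0.47) that did not pass (edgeR adjusted p = 0.0706). These 2 hosts were named after their values were seen, and the difference between guest and host was not tested. Over the 212 tested genes that host an annotated small nucleolar RNA or match the host symbols, 36 fell, 39 rose and 137 did not pass (35.4% called, against 29.2% of all genes; median log2 fold change 0.01). Pawr, a pro-apoptotic factor, fell from 81.76 ± 4.8 CPM to 38.21 ± 7.13 CPM, and Ckap5, a microtubule polymerase, fell by 1.06 on the log2 scale. Rpl12, a protein of the large ribosomal subunit with near-identical copies in the genome, rose by 0.61. In these 3 hosts the edgeR adjusted p ran from 0.000384 to 0.000539.

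**Figure D3:**
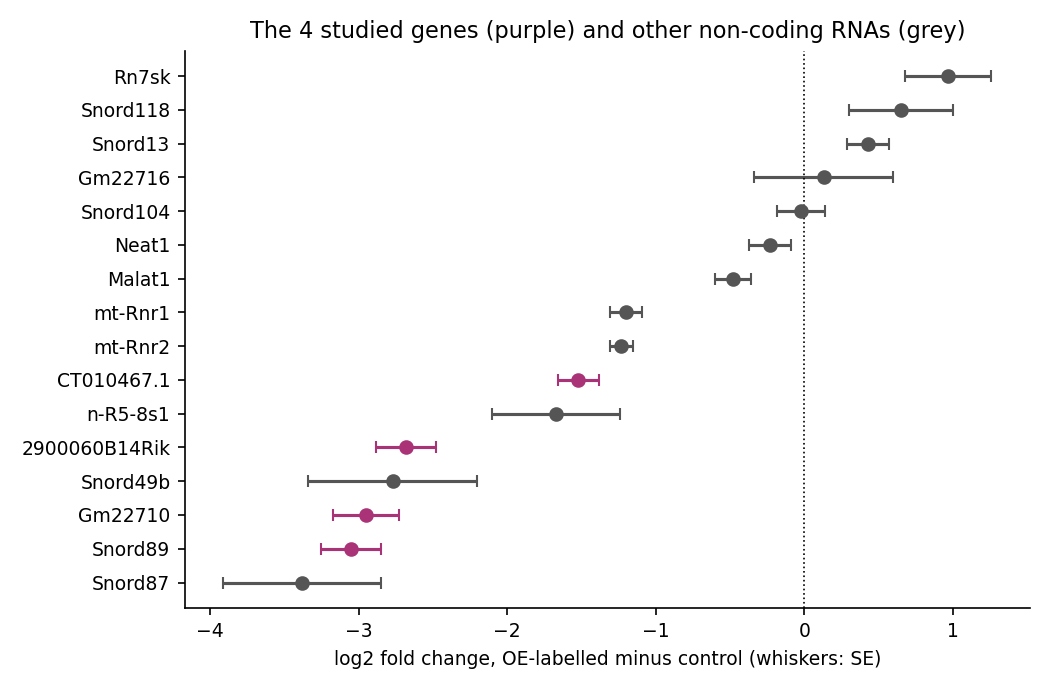
Log2 fold change of OE against control libraries with its SE for the 4 studied genes (purple) and the other tested genes of the small nucleolar, small nuclear and 7SK, ribosomal and triple-helix RNA lists (grey). Grey genes lie on both sides of 0, from -3.38 (Snord87) to 0.97 (Rn7sk).

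Among 1407 small nuclear, 7SK, RNase P and Y RNA genes, 114 had a count and 2 were tested, with 50% called against 29.2% of all genes. None of the 2 fell (0 at an unadjusted p below 0.05 in edgeR, and 0 in DESeq2). Rn7sk, the 7SK RNA that holds back the elongation factor P-TEFb, had control counts of 14, 10 and 21 and OE counts of 37, 29 and 35. It rose by 0.97 on the log2 scale (SE 0.29; adjusted p = 0.0237 in edgeR), which failed the threshold in 5 of 17 alternatives (adjusted p 0.012 to 0.111). The snRNA model Gm22716 had 11, 4 and 13 counts against 17, 6 and 12 (log2 fold change 0.13, SE 0.47, edgeR adjusted p = 0.855).

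All 3 tested genes of the ribosomal RNA list fell in edgeR and 2 in DESeq2. Over all tested genes edgeR called 29.2%, with 12.7% lower, and no trend is read from 3 genes. Of the 3, 1 is no sign of direction, since it was kept only through its control counts. The mitochondrial ribosomal RNAs mt-Rnr1 and mt-Rnr2 fell by 1.2 (SE 0.11) and 1.23 (SE 0.08) on the log2 scale (edgeR adjusted p = 4.15e-05 and 4.68e-06). Both have nuclear copies in the genome. n-R5-8s1, a 5.8S ribosomal RNA gene that passed the count filter only through the control libraries, had control counts of 11, 13 and 13 and OE counts of 7, 4 and 2. Its log2 fold change was -1.67 (SE 0.43; adjusted p = 0.0122 in edgeR), which failed the threshold in 4 of 17 alternatives (adjusted p 0.00344 to 0.0549). Of the long nuclear RNAs whose ends form a triple helix in place of a poly(A) tail, Malat1 fell by 0.48 (SE 0.12; adjusted p = 0.0114 in edgeR), which failed the threshold in 4 of 17 alternatives (adjusted p 2.3e-07 to 0.122). Neat1 had a log2 fold change of -0.23 and did not pass (SE 0.14; adjusted p = 0.218 in edgeR).

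RNAs were also summed by annotated type, leaving out the 4 genes. In these sums 3 classes of short RNA were at lower levels in the OE libraries, and small nucleolar RNAs were not. The small nuclear sum leaves out Rn7sk, which is not annotated as snRNA. Rn7sk rose from 6.94 ± 2.53 to 13.73 ± 2.02 CPM (TMM-scaled; SD, n = 3). A sum that includes it was not made, so the lower small nuclear level holds for the annotated type only. Small nuclear RNAs other than Gm22710 gave 47.6 ± 2.17 CPM in control and 33.22 ± 8.95 CPM in OE, and the 10 cytosolic rRNA genes other than CT010467.1 gave 12.15 ± 1 and 6.682 ± 0.916 CPM (SD, n = 3). The 14 mitochondrial tRNA genes gave 96.14 ± 2.03 and 57.69 ± 10.7 CPM (SD, n = 3). The libraries of the groups did not overlap in these 3 classes. Ranges without overlap and with OE lower were also found for 20.5% of single tested genes. Small nucleolar and Cajal body RNAs other than Snord89 gave 454.1, 469.9 and 476.4 CPM in control and 638.4, 437.4 and 545.1 CPM in OE libraries, so the groups overlapped and the OE mean was higher. Snord13 made up most of this sum, and the rest, set apart after the values of Snord13 were seen, gave 144.1 ± 2.21 and 91.57 ± 13.1 CPM (SD, n = 3). With 3 libraries a group, the smallest two-sided p of an exact permutation test is 0.1, so none is given. The part of the larger protein-coding share in these sums was not tested.

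**Figure D4:**
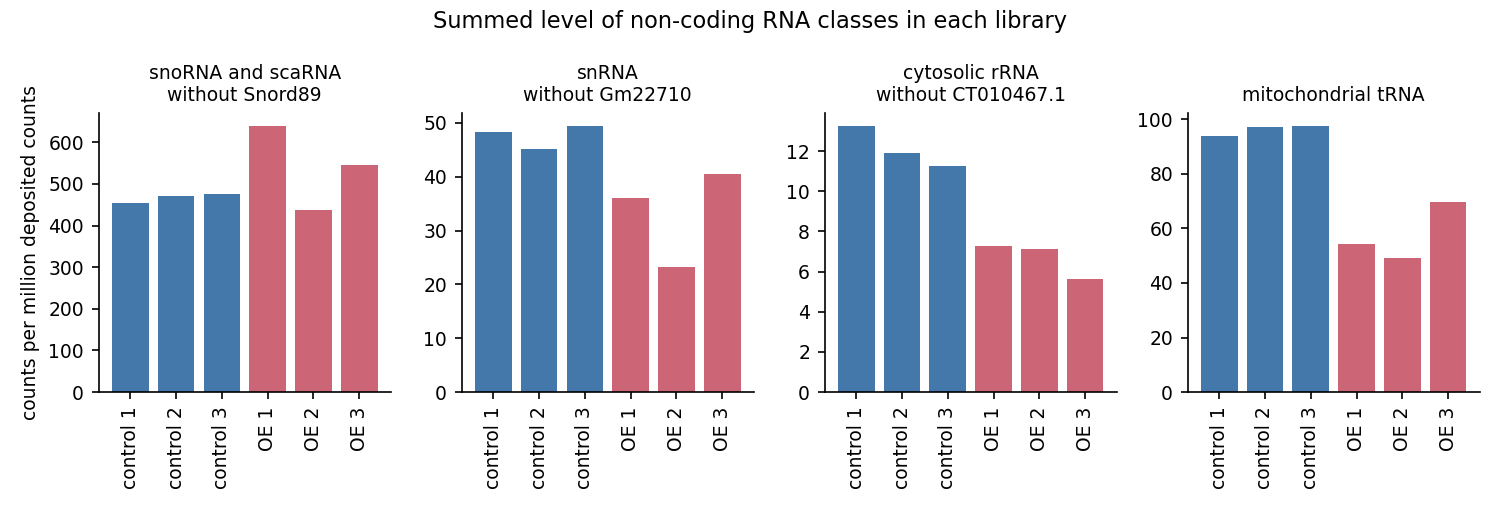
Summed CPM (without TMM scaling) in each library for 4 classes of short RNA genes, without the studied genes, on axes starting at 0 (blue control, red OE). All 3 control bars stand above all 3 OE bars for snRNA, cytosolic rRNA and mitochondrial tRNA, and the groups overlap for small nucleolar and Cajal body RNA. The snRNA bars leave out Rn7sk. Of single tested genes, 20.5% also had all OE libraries below all control libraries.

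Genes for the proteins that make and trim these RNAs were called in both directions, as were all tested genes, of which 29.2% were called, 12.7% lower and 16.5% higher. Of 18 tested proteins of small nucleolar ribonucleoproteins and their assembly, 4 fell and 5 rose (50% called, against 29.2% of all genes; median log2 fold change 0.07). Rpap3 and Pih1d1 belong to the same assembly complex. Rpap3 fell from 47.28 ± 5.53 CPM to 26.92 ± 3.15 CPM (edgeR adjusted p = 0.00297), while Pih1d1 rose from 10.51 ± 2.09 CPM to 27.3 ± 2.01 CPM (SD, n = 3; adjusted p = 0.000693, edgeR). The core C/D box proteins Nop56 and Snu13 also differed, by -0.56 (SE 0.13; adjusted p = 0.00691 in edgeR) and 1.05 (SE 0.2; adjusted p = 0.00244 in edgeR). Nop56 itself hosts small nucleolar RNAs.

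Of 21 tested genes of the nuclear exosome and 3′ trimming, which shorten small RNA precursors and degrade failed ones, 3 fell and 1 rose (19% called, below the 29.2% of all genes; median -0.07). Zcchc7, the RNA-binding subunit of its TRAMP cofactor, fell by 0.61 (SE 0.12; adjusted p = 0.00253 in edgeR; 0.000103 to 0.167 over the alternatives, past 0.05 in 2 of 17). The nuclease Dis3 fell by 0.6 (SE 0.17; adjusted p = 0.0214 in edgeR), which failed the threshold in 5 of 17 alternatives (adjusted p 0.00231 to 0.133). Exosc4, a core ring subunit, rose by 0.69 (SE 0.16; adjusted p = 0.00758 in edgeR).

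For snRNA transcription and end formation, 3 of 24 genes fell and 3 rose (25% called, near the 29.2% of all genes; median -0.1). Snapc1 and Ice1 fell by 0.71 and 0.62, and Ints11, the cutting subunit of Integrator, and Snapc2 rose by 1.08 and 0.94 (edgeR adjusted p from 0.0037 to 0.0114). The calls of Snapc1, Snapc2 and Ice1 were lost in 2, 2 and 1 of 17 alternatives, with highest adjusted p of 0.0599, 0.0527 and 0.0564. Of 26 subunits and factors of RNA polymerases I and III, 2 fell and 7 rose (34.6% called, near the 29.2% of all genes, median 0.09). A gene among the 7 passed the count filter only through the OE libraries, so it is no sign of direction. Ttf1, the polymerase I terminator, fell by 0.76 and Polr3d by 0.68, while Polr1c, shared by both polymerases, rose by 0.79 and Polr3c by 0.67 (edgeR adjusted p from 0.000728 to 0.0084). The calls of Polr3d and Polr3c were each lost in 1 of 17 alternatives, with highest adjusted p of 0.054 and 0.0503.

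Replication-dependent histone mRNAs, which normally end in a stem-loop and carry no tail, were mostly below the filter. Of 68 genes, 5 were tested, 1 being lower and 1 higher (40% called, against 29.2% of all genes, median 0.35). The 5 include an uncalled gene kept only through its OE counts, which bears on the median. H1f4 fell from 92.85 ± 7.09 CPM to 16.78 ± 3.88 CPM (mean ± SD, n = 3; log2 fold change -2.46, SE 0.17; adjusted p = 4.73e-06 in edgeR), and H2bc4 rose by 0.67 (SE 0.18; adjusted p = 0.0145 in edgeR). The H2bc4 call was lost in 3 of 17 alternatives (adjusted p 0.00432 to 0.0743), including DESeq2 and the fits without control replicate 1 or 3. Both belong to a family of near-identical genes and are uncertain. Of 6 tested factors of histone mRNA end processing, Lsm10 rose by 0.53 (SE 0.17; adjusted p = 0.0309 in edgeR), which failed the threshold in 10 of 17 alternatives (adjusted p 0.0203 to 0.222). The other 5 did not pass, 0 being lower at the adjusted threshold, 1 at an unadjusted p below 0.05 in edgeR, and 0 in DESeq2.

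The 4 genes followed each other over the 6 libraries, with Pearson correlations of log2 CPM from 0.983 (Snord89 with CT010467.1) to 0.997 (Snord89 with Gm22710), leaving aside the nested pair. The points fall in the 2 groups and share library depth and scaling, so these values mostly restate the gap between groups. The genes with the most similar pattern, out of 9645 compared (mean log2 CPM no lower than 3), were Ano3 (0.998), Rsbn1l (0.997) and Golgb1 (0.997) for Snord89. Beside the nested partner they were Numa1 and Orc2 for Gm22710 and for 2900060B14Rik. For CT010467.1 they were Phldb2 (0.999), Canx (0.997) and Dzip1l (0.997). Between 32 and 41 genes reached a correlation of 0.99 with each studied gene. All of the named genes are protein-coding, and their log2 fold changes ran from -2.09 (Ano3) to -0.59 (Numa1).

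**Figure D5:**
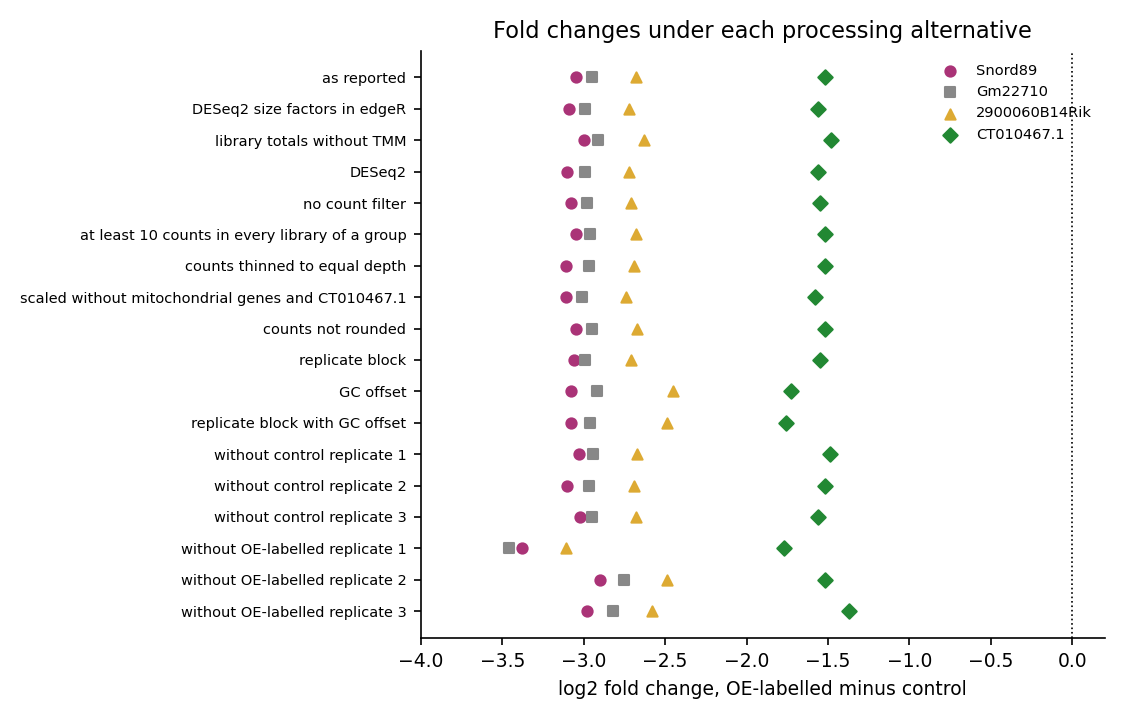
Log2 fold change of the 4 genes (one marker shape each) as reported and under each of 17 processing alternatives. All values lie below 0, from -3.46 (Gm22710 without OE replicate 1) to -1.37 (CT010467.1 without OE replicate 3). The genes were picked as lower in these same libraries, so the sign is no support for the difference.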

How the data were processed

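Total RNA was taken from mouse intestinal organoids and sequenced as 3′ mRNA libraries of a forward kit, per the labels' protocols. The deposited table holds estimated counts that the authors had not normalized. The submitters' processing notes name STAR, HTSeq and GRCm38 (mm10), and the counting mode, strand setting, annotation release and use of molecular identifiers are not given in the sources used here. Of the deposited values above 0, 3.09% were fractional, and counts were rounded for the tests. All columns of values were used, and each was matched to its sample by library name, with groups and replicate numbers from the titles. Gene identifiers were looked up in GENCODE M21 (51989 found, 99.5%) for type, position and sequence.

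OE and control libraries were compared over all 6 libraries without covariates with edgeR 4.0.16 (quasi-likelihood F test, R 4.3.3), with filterByExpr, TMM factors and Benjamini-Hochberg adjustment over 10687 genes, at a threshold of 0.05. The standard error is the log2 fold change over the square root of the F statistic. The fits were tested on simulated counts. CPM is TMM-scaled, except for the class sums and the remainder of 2900060B14Rik, which use the deposited totals. A floor of 3 counts lay at 1.19 to 1.38 CPM, and floors cover counting error only. Named genes were the 4 studied, those overlapping them, the tested short and ribosomal RNAs, up to 2 called genes per direction of each other list by smallest p, and 3 genes per studied gene by correlation; Rnf149, Snhg6 and 2410006H16Rik were added. A gene selected by this rule is not reported here. The host list held genes whose span holds an annotated small nucleolar RNA on the same strand, and the lists are written from general knowledge. The studied genes and the lists were chosen with earlier results of these data known. The alternatives were DESeq2 size factors, library totals, DESeq2 1.42.0, other count filters, equal depth, scaling without mitochondrial genes and CT010467.1, unrounded counts, the replicate block, a GC offset by loess (span 0.5), both together, and each library left out.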

Additional observations from a re-analysis of the deposited data

How the results depend on the processing

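The log2 fold changes of the 4 studied genes stayed negative in all 17 alternatives. The genes were picked as lower in these same libraries and their groups did not overlap, so the sign is no support for the difference. The alternatives show only how far the size of the log2 fold changes moved. With single libraries left out the log2 fold changes ran from -3.38 to -2.9 for Snord89, from -3.46 to -2.75 for Gm22710, from -3.11 to -2.49 for 2900060B14Rik and from -1.77 to -1.37 for CT010467.1. Each of these lowest values came from leaving out OE replicate 1. The number of genes called was 1748 to 3532 with any single library left out, and of genes called lower 715 to 1731; the fits without control replicate 1, 2 or 3 gave 1893, 1837 and 1748. The calls per list ran from 46 to 96 for host genes, 3 to 10 for polymerases I and III, 3 to 8 for snRNA transcription, 2 to 5 for the exosome, 1 to 2 for histones, 0 to 2 for histone end processing, 0 to 2 for triple-helix RNAs and 0 to 1 for snRNA and 7SK genes.

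Without a count filter, 8 small nucleolar RNAs and 4 snRNA or 7SK genes were called, more genes being tested. DESeq2 called 0 snRNA or 7SK genes, 1 histone gene and 0 histone processing genes (1, 1 and 1 at an unadjusted p below 0.05). With the GC offset, alone or with the replicate block, edgeR called 0 snRNA or 7SK genes, 0 triple-helix RNAs and 2 exosome genes (1 of each of the first 2 lists at an unadjusted p below 0.05). Histone processing calls became 2 with DESeq2 size factors in edgeR, at equal depth and with the replicate block. The cause was not tested. The replicate block gave 3112 genes, 2958 of them shared with the 3118 reported, and changed no other count of a list by over 1.5 times. Correlations across genes between libraries of the same number, as deviations from the group means, were 0.1, 0.02 and 0.07. Pairs of unlike number ran from -0.11 to 0.04. Control replicates 1 and 3 correlated best with the OE library of their number, and control replicate 2 with OE replicate 3 (0.04). These weak values do not say whether the numbers pair the libraries. At these depths most short RNA genes lay below the filter.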

Other observations

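Of 32 listed small nucleolar, small nuclear, 7SK and ribosomal RNA genes with at least 20 counts over the 6 libraries, 10 were tested and 22 lay below the count filter. No test was run. All OE libraries lay below all control libraries in CPM for 14 of the 32 and above them for 2, and 16 overlapped. Over all tested genes the ranges did not overlap for 45.7%, with OE lower for 20.5%, but most of these 32 have counts below the filter of those genes, so the shares are not on the same footing. Among those below the filter, Snora57 had 27, 9 and 10 counts in control and 3, 7 and 5 in OE libraries. Snord15a had 5, 9 and 6 counts against 1, 2 and 0. Rpph1, the RNA of RNase P, had 4.5, 3.5 and 7.5 counts against 3, 2.5 and 1. Scarna17 had 8, 9 and 19 counts against 9, 13 and 4, and Snord65 had 4, 4 and 7 against 1, 12 and 6. These genes were named after their values were seen.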
